A study of Mus musculus with 116 samples.

Results

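The comparison is of FDB1 cells that carry the V449E receptor mutant, 6 hours after IL-3 was removed, with the same cells at 0 hours. It rests on 4 of the 116 arrays of the series, those whose labels pair these RNAs, in both dye orders for replicates 1 and 2. No measured value was used to choose them. FDB1 is a mouse myeloid line that grows only with added cytokine. The series followed it on 2-colour arrays over 72 hours, with 18 conditions and 2 RNAs for each. All cells were kept in medium with 500 U/mL of mouse IL-3 and 10% fetal calf serum and were washed at 0 hours. V449E and FI-Delta cells were next left without cytokine, and parental cells received 500 U/mL of GM-CSF. The groups used here are V449E at 0 and 6 hours and at the later times of 12, 24, 48 and 72 hours, FI-Delta at 0 and 6 hours, and parental cells before and 6 hours after the move to GM-CSF. The labels do not say whether a mutant line is 1 clone or a pool, what drives the receptor, or whether replicates were separate cultures. P-values therefore measure only the spread between RNAs of the same condition, pooled over all 18 conditions, and that spread may be technical.

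As background, IL-3 and GM-CSF bind receptors that share a beta chain, which acts through the kinase JAK2 on the transcription factor STAT5 and on the ERK and PI3K pathways. These keep cytokine-dependent myeloid cells growing and alive. V449E is known as a change in the membrane-spanning part of that beta chain that signals without cytokine, and FI-Delta as a change in its outer part.

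Values are log2 ratios of 6 over 0 hours. Where 4 are given, they are replicate 1 with the 6-hour RNA in Cy5 and then in Cy3, followed by replicate 2 in the same order. The direction, Cy5 over Cy3, and the log base are likely but not stated in the sources used here. Ratios hold no level of a gene, so the myeloid identity of the cells could not be checked against marker levels. Medians of the 4 arrays lay between -0.00205 and 0.0014 and their median absolute deviations between 0.0884 and 0.102. Across 20243 features, which are not independent replicates, the dye swaps correlated at r = 0.34 in replicate 1 and r = 0.45 in replicate 2, and the replicate averages at r = 0.49. All 4 arrays came from print run 1. Fitted differences with their standard error (SE) come from limma, with n = 2 RNAs for each condition. They come from 1 fit to all 116 arrays, of which 8 hold the 6-hour RNA and 32 the 0-hour RNA.

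At 6 hours 79 features were higher and 65 lower at an adjusted p under 0.05 (limma, Benjamini-Hochberg), which is 144 of 20243 features tested or 0.711%. The shares are 0.39% for higher and 0.321% for lower. Only 8 rises and 5 falls reached 2-fold, and the median size was 0.57 on the log2 scale, from 0.28 to 1.80. All 144 had 1 sign on all 4 arrays, as did 28.1% of all features, but these arrays also entered the fit that made the calls. Of the 144, 134 were genes with 1 symbol, 75 higher and 59 lower. The number of calls depended on single RNAs. Without V449E 0-hour replicate 1, 9 features passed, and without 0-hour replicate 2, 7 passed. Without 6-hour replicate 1, 72 passed, and without 6-hour replicate 2, 91 passed. RNAs of other conditions also mattered through the shared fit, with 81 and 85 without parental 0-hour replicates 1 and 2 and 216 without FI-Delta 6-hour replicate 1. The 144 features kept their direction in each of the 4 fits without a V449E RNA, and 74 of them passed in at least 1. Ccrl2, Pmaip1 and Xbp1 passed in all 4. Without 0-hour replicate 1 the others of the 144 that still passed were Clec4e, Nfkb2, Relb and Tnfaip3, and without 0-hour replicate 2 they were Mxd1, Rilpl2, Slc7a11 and Slc7a9. No other gene named below as changed passed with one or the other 0-hour RNA left out. In bulk RNA, fewer cells of a type and less RNA per cell cannot be told apart.

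**Figure D1:**
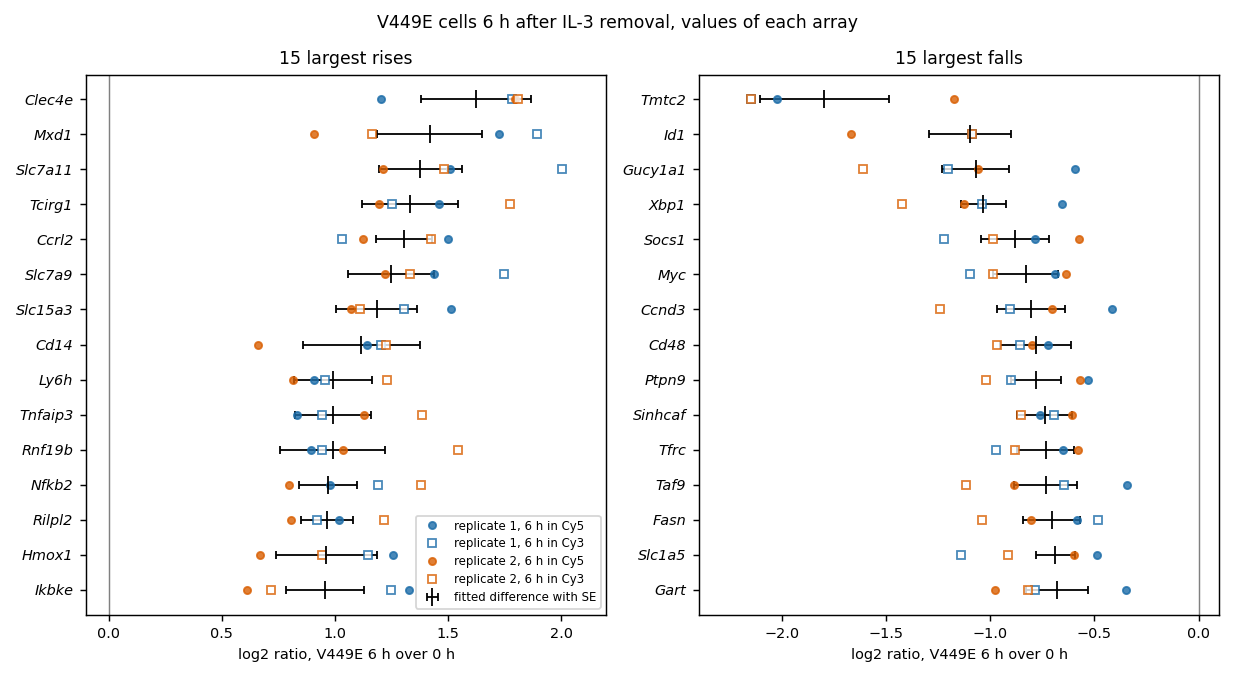
Log2 ratios of V449E cells at 6 over 0 hours on each of the 4 arrays for the 15 largest rises (left) and the 15 largest falls (right) past the threshold. Circles are arrays with the 6-hour RNA in Cy5 and open squares those with it in Cy3, colours give the replicate, and black marks are fitted differences with SE. Every array lies on the same side of 0 for each of these genes, which the choice of genes required.

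The largest rise past the threshold was of Clec4e, the C-type lectin receptor Mincle. Its ratios were 1.21, 1.78, 1.80 and 1.81, with 1 array of replicate 1 below the other 3 (fitted 1.63, SE 0.24, adjusted p = 0.00146). The largest fall was of Tmtc2, a transferase of the endoplasmic reticulum, with -2.03, -2.15, -1.18 and -2.15. One array of replicate 2 lay nearer to 0 than the other 3, and the fitted difference was -1.80 (SE 0.31, adjusted p = 0.00406), a 3.48-fold fall. The smallest adjusted p belonged to Ccrl2, an atypical chemokine receptor, at 1.50, 1.03, 1.13 and 1.43 (fitted 1.30, SE 0.12, adjusted p = 6.15e-06). Its replicates overlapped. Next was Xbp1, a transcription factor of the unfolded protein response, at -0.66, -1.04, -1.13 and -1.42 (fitted -1.03, SE 0.11, adjusted p = 2.77e-05). Both replicate 2 arrays of Xbp1 lay below both of replicate 1.

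Genes of the receptor itself did not pass. Csf2rb2, the IL-3-specific beta chain, had 0.26, -0.41, -0.16 and -0.34, positive on 1 array and negative on 3. Csf2ra, the GM-CSF-binding chain, had 0.15, 0.15, -0.06 and -0.29, positive in replicate 1 and negative in replicate 2. Il3ra, the IL-3-binding chain, had 0.18, 0.02, 0.03 and 0.08, all above 0 and close to it. Among the 14 measured receptor chains and their kinases none passed, and the list median was 0.05 against 0.0046 for all features. As 0.711% of all features passed, 0 calls in a short list, here or below, is no result about its members. The largest difference in that list was of Il5ra, the IL-5-binding chain, at 0.25 (SE 0.08, adjusted p = 0.222). Csf2rb, the shared chain, was not among the features. Of 18 receptors for other myeloid cytokines 2 rose, Tnfrsf1b, TNF receptor 2, with 1.09, 0.86, 0.28 and 0.51, and Ifnar1, an interferon receptor chain, by 0.42 (SE 0.09). For Tnfrsf1b both replicate 1 arrays lay above both of replicate 2.

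STAT5 targets were the list with the lowest median, at -0.32. Of 18 measured, 4 fell (22.2%) and none rose. A negative fitted difference was found in 14 of the 18, and the highest member was at 0.11. Id1, an inhibitor of basic helix-loop-helix factors, had -1.09, -1.09, -1.67 and -1.09, nearly equal on 3 arrays and lower on the fourth (fitted -1.10, SE 0.20, adjusted p = 0.0058). Socs1, a feedback inhibitor of JAK kinases, had -0.79, -1.22, -0.57 and -0.99 (fitted -0.88, SE 0.16). Ccnd3, cyclin D3, had -0.42, -0.91, -0.71 and -1.24 (fitted -0.81, SE 0.16). In all of Socs1, Ccnd3 and Myc, both Cy3 arrays lay below both Cy5 arrays. Myc, the growth regulator, had -0.69, -1.10, -0.64 and -0.99, and its fitted difference was -0.83 (SE 0.16, adjusted p = 0.00803). Other canonical members, picked after values were seen, did not pass. Cish, a STAT5-induced SH2 protein, was at -0.52 (SE 0.19, adjusted p = 0.312), Bcl2l1, the survival factor BCL-XL, at -0.45 (adjusted p = 0.247) and Pim1, a survival kinase, at -0.42 (adjusted p = 0.219). The count of 4 was 7 with arrays scaled to equal spread, 2 without 6-hour replicate 2, and 0 without any of the other 3 RNAs.

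Myc and its antagonist moved in opposite directions. Mxd1, a MAX partner that represses MYC sites, had 1.73, 1.89, 0.91 and 1.16. Both replicate 1 arrays were above both replicate 2 arrays. The fitted difference was 1.42 (SE 0.23, adjusted p = 0.00269), a 2.68-fold rise. No other gene among 11 in the list of MYC and its partners passed. Gadd45b, a stress-induced growth arrest gene, rose by 0.66 (SE 0.11), and with Mxd1 it made up the 2 of 23 cell cycle exit genes that rose. Against 0.711% of all features, none of 49 genes of G1/S and DNA replication and none of 44 of mitosis passed. Their medians were -0.09 and -0.03, and Mcm2, a helicase subunit, was at -0.39 (SE 0.14, adjusted p = 0.278).

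Ribosome biogenesis genes lay below 0 as a group. Of 55 measured, 53 had a negative fitted difference and 5 fell (9.09%), while none rose, and the median was -0.20. Over all features 9633 of 20243 were negative. Nop58, a core protein of box C/D particles, had -0.77, -0.62, -0.66 and -0.69, within a narrow range. Wdr43 and Utp4, components of the small subunit processome, fell by 0.59 (SE 0.11) and 0.35 (SE 0.07). Nop2, an rRNA methyltransferase, fell by 0.48 (SE 0.10) and Nifk, a nucleolar partner of Ki-67, by 0.55 (SE 0.11). The count of 5 was 8 without the replicate block, 9 with weighted levels, 10 with direct arrays alone and 12 with arrays scaled to equal spread. It was 0 without either 0-hour RNA, 2 without 6-hour replicate 1 and 1 without 6-hour replicate 2. Outside the list, and picked after values were seen, the ribosome assembly factors Ppan (-0.51), Pdcd11 (-0.45), Gtpbp4 (-0.36) and Brix1 (-0.33) also fell. None of 70 cytosolic and none of 71 mitochondrial ribosomal protein genes passed, with medians of 0.04 and -0.05. At 0.711% over all features, 0 calls in lists of this size is no result about their members. Of 55 translation factors Eif2s2, a subunit of initiation factor eIF2, fell, by 0.53 (SE 0.12).

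The promoters of ribosome biogenesis genes were searched for the E-box CACGTG on both strands, because MYC and MXD1 with MAX bind it. It was present in 9 of 58 promoters (15.5%) and in 7.15% of all 32851 promoters of the same length. Among the 5 genes that fell, 3 held it, namely Nop2, Utp4 and Wdr43. The one with the largest fall of these is shown, from RefSeq (GRCm38.p6), 250 bases before to 50 after the start, with the E-box in capitals.
Wdr43, chr17:71615965-71616264, plus strand: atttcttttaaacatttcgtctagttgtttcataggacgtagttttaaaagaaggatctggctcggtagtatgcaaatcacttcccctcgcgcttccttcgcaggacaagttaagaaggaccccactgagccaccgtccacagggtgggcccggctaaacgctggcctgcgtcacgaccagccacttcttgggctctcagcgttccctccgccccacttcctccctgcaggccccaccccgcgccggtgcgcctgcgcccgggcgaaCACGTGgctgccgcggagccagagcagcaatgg
A match describes the sequence and is not a bound site.

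The list with the highest median was that of NF-kB feedback and target genes. NF-kB is a family of dimers of REL proteins that inflammatory and survival signals release from IkB inhibitors, and many of its targets are its own subunits and inhibitors. Of 20 measured members 8 rose (40%), none fell and 18 had a positive fitted difference, with a median of 0.39. Of the subunits, Nfkb2, the p100 precursor, had 0.98, 1.19, 0.80 and 1.38 (fitted 0.97, SE 0.13, adjusted p = 0.000406). Relb, its usual partner, had 0.67, 1.02, 0.41 and 0.90 (fitted 0.77, SE 0.13). For both, the Cy3 array read higher than the Cy5 array in each replicate. Rela and Rel, picked after values were seen like the other members given here that did not pass, were at 0.25 (adjusted p = 0.245) and 0.31 (adjusted p = 0.42).

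Inhibitors of the pathway were among the members that rose. Tnfaip3, the ubiquitin-editing enzyme A20, had 0.83, 0.94, 1.13 and 1.39, and both replicate 2 arrays were above both of replicate 1. The fitted difference was 0.99 (SE 0.17, adjusted p = 0.00403), a 1.99-fold rise. Tnip1, the A20-binding protein ABIN1, had 0.67, 0.91, 0.85 and 0.87, with the lowest value on 1 array of replicate 1. Nfkbib, an IkB protein, rose by 0.32 (SE 0.08, adjusted p = 0.0476), and Nfkbie, another, was at 0.53 (adjusted p = 0.053). Nfkbia, which encodes IkB-alpha, was at -0.11 (adjusted p = 1).

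Effector targets were mixed. Birc3, the inhibitor of apoptosis cIAP2, rose by 0.78 (SE 0.14), and its 2 probes gave 0.38 and 1.22. Tnfaip2 rose by 0.64 (SE 0.10) and Icam1, an adhesion molecule, by 0.45 (SE 0.08). The chemokine Ccl3 had 1.27, 0.77, 2.68 and 2.61 (fitted 1.83, SE 0.59, adjusted p = 0.211). Ccl4 had 0.62, 0.41, 1.81 and 2.43 (fitted 1.32, SE 0.47, adjusted p = 0.303). In both, replicate 2 was far above replicate 1, and neither passed. Sod2 and Ier3, common NF-kB targets, were at -0.02 and 0.04. Outside the list, Ikbke, Tbk1 and Tradd were also among the rises, but no set of genes related to them was defined or counted. Ikbke, an IKK-related kinase, had 1.33, 1.25, 0.61 and 0.72 (fitted 0.96, SE 0.17), with replicate 1 above replicate 2. Tbk1, its closest relative, rose by 0.33 (SE 0.06) and Tradd, an adaptor of TNF receptor 1, by 0.68 (SE 0.15), both named after their values were seen. The count of 8 was 4 without 0-hour replicate 1, 0 without 0-hour replicate 2, 1 without 6-hour replicate 1 and 7 without 6-hour replicate 2. The list's median stayed between 0.31 and 0.47 in these 4 fits.

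Promoters of the NF-kB list were searched for the kappaB consensus on both strands, a motif added after the list's values were seen. It was present in 11 of 19 promoters (57.9%), belonging to 9 of 16 genes in the RefSeq table, and in 4.51% of all 32851 promoters. Of the 7 risen genes with a promoter there, 3 held it, a share no higher than in the list as a whole. The list was made of NF-kB feedback and target genes, so its high share describes the list and not the rise. The promoters of these 3 risen genes are shown, and capitals mark the matches, which may overlap.
Nfkb2, chr19:46304487-46304786, plus strand: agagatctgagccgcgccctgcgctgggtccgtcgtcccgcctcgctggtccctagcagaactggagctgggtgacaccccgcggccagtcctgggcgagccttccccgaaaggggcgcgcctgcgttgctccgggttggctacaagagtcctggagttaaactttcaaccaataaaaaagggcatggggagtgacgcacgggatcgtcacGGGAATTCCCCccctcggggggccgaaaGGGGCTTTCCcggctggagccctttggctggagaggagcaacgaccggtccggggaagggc
Tnfaip3, chr10:19015361-19015660, minus strand: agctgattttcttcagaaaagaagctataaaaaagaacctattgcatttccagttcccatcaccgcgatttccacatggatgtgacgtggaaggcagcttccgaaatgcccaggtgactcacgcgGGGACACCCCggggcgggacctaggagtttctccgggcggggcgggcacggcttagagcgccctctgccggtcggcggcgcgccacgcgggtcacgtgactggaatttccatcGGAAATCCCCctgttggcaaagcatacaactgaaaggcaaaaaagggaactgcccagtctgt
Tnip1, chr11:54962891-54963190, minus strand: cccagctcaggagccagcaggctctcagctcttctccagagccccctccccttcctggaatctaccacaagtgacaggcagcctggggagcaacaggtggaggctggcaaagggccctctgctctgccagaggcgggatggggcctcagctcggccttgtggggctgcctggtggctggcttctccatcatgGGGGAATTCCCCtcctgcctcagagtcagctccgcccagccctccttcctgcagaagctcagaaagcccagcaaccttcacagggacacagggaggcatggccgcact
The other searches gave TTCNNNGAA, the STAT5 motif, in 27.8% of promoters of STAT5 targets and 8.3% of all, and in neither of the 2 fallen genes with a promoter in the table. They gave TGATGNAA in 21.4% of promoters of the ATF4 list and 3.97% of all, and TGACNNNGC in 27.3% of the NRF2 list and 12.4% of all. GTAAACA was in 19.4% of promoters of FOXO targets and 3.65% of all, in a list with no changed gene. A motif was thus more frequent than over all promoters in lists with and without changed genes.

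**Figure D2:**
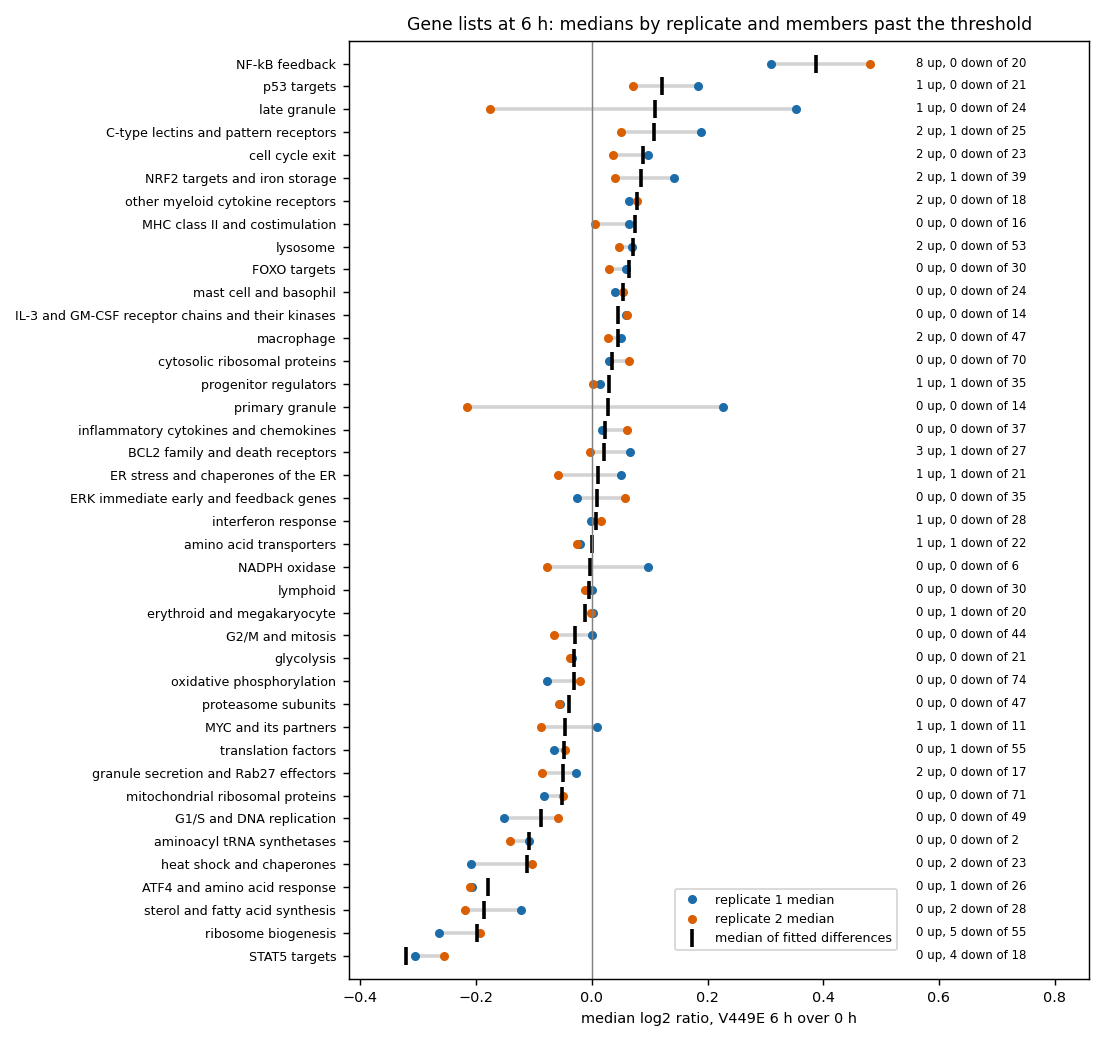
Median log2 ratio of V449E cells at 6 over 0 hours for each of 40 gene lists, in replicate 1 (blue), replicate 2 (orange) and as the median of fitted differences (black mark), with the number of members past the threshold at the right. The NF-kB list (median 0.39) and the STAT5 targets (-0.32) lie at the ends, and the granule lists have replicate medians on opposite sides of 0.

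Among genes of cell death, 3 of 27 rose and 1 fell. Pmaip1, the BH3-only killer protein NOXA, had 1.23, 0.71, 0.96 and 1.09 (fitted 0.91, SE 0.11, adjusted p = 8.71e-05). The replicates overlapped. Birc2, the inhibitor cIAP1, rose with Birc3, by 0.58 (SE 0.09), and Casp8, the initiator caspase of death receptors, fell by 0.41 (SE 0.08). Pro-survival Mcl1 and Bcl2, picked after values were seen, were at 0.09 and -0.08 (adjusted p = 1 for both). Bcl2l11, the BH3-only protein BIM and a FOXO target, had 0.39, 0.37, 0.78 and 1.02 and did not pass (fitted 0.59, SE 0.21, adjusted p = 0.279). Both replicate 2 arrays were the higher ones. None of 30 FOXO targets and none of 35 ERK immediate early and feedback genes passed, against 0.711% of all features. In the ERK list Jun, a subunit of AP-1, was at 0.63 (SE 0.25, adjusted p = 0.419), and Egr3 had 0.27, -0.20, 1.26 and 1.14, above 0 on both arrays of replicate 2 only. Of 21 p53 targets 1 rose, which was Pmaip1, and Trp53inp1, a stress-induced p53 cofactor, was at 0.47 (SE 0.12, adjusted p = 0.0739).

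Single genes of cystine transport and heme breakdown were among the rises. Slc7a11, the cystine-glutamate exchanger xCT, had 1.51, 2.01, 1.21 and 1.48 (fitted 1.38, SE 0.18, adjusted p = 0.000436). Slc7a9, the light chain of another cystine carrier, had 1.44, 1.75, 1.22 and 1.33 (fitted 1.25, SE 0.19). In both genes the replicate 1 arrays lay above those of replicate 2. Hmox1, heme oxygenase 1, rose by 0.96 (SE 0.22, adjusted p = 0.0426), a call lost with robust variance moderation and with print run 1 arrays alone. In the list of NRF2 targets and iron storage, 2 of 39 rose (Slc7a11 and Hmox1), 1 fell and 30 lay above 0, with a median of 0.09. The gene that fell was Tfrc, the transferrin receptor, with -0.65, -0.97, -0.58 and -0.88, lower on both Cy3 arrays. Slc1a5, the glutamine transporter ASCT2, fell by 0.69 (SE 0.09, adjusted p = 0.000534). It was the 1 of 22 amino acid transporters that fell, as Slc7a11 was the 1 that rose.

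Biosynthetic genes were among the falls. Of 28 sterol and fatty acid synthesis genes 26 lay below 0 and 2 fell, with a median of -0.19. Fasn, fatty acid synthase, had -0.59, -0.48, -0.81 and -1.04, and both replicate 2 arrays were below both of replicate 1. Acly, ATP citrate lyase, had -0.34, -0.58, -0.49 and -0.65 (fitted -0.56, SE 0.13). In the ATF4 list 1 of 26 fell, Aldh18a1, an enzyme of proline synthesis, by 0.55 (SE 0.12). Atf4 itself had -0.66, -1.17, -0.64 and -0.78, all below 0, and did not pass (fitted -0.77, SE 0.23, adjusted p = 0.158). The purine synthesis enzyme Gart (-0.68) fell, as did the polyamine enzymes Odc1 (-0.50) and Srm (-0.49), these last named after values were seen. Hspd1, the mitochondrial chaperonin, and Cct6a, a cytosolic chaperonin subunit, were the 2 of 23 heat shock and chaperone genes that fell, by 0.55 and 0.41, and with print run 1 arrays alone the list had 0. Of 21 glycolysis genes, 74 of oxidative phosphorylation and 47 of the proteasome none passed, against 0.711% of all features. Ldha, lactate dehydrogenase A, was at -0.50 (SE 0.17, adjusted p = 0.247).

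Regulators of the unfolded protein response went opposite ways. While Xbp1 fell, Atf6, another of its transcription factors, had 0.91, 0.96, 1.02 and 1.02, a nearly constant rise over the 4 arrays (fitted 0.95, SE 0.21, adjusted p = 0.0243). The call was lost with print run 1 arrays alone. No other gene of 21 in that list passed, and its median was 0.01.

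Surface and lysosomal genes of phagocytes were among the rises, while the medians of their lists were close to 0. Cd14, the lipopolysaccharide co-receptor, had 1.14, 1.20, 0.66 and 1.23 (fitted 1.12, SE 0.26, adjusted p = 0.0407), with 1 array of replicate 2 below the other 3. It lost its call with direct arrays, weighted levels, robust moderation and print run 1 arrays. Abca1, a cholesterol exporter, rose by 0.74 (SE 0.12), and these were the 2 of 47 macrophage genes that rose, in a list with a median of 0.05. Of other macrophage markers, picked after values were seen, Adgre1 (F4/80) was at -0.15, Itgam at -0.45 and Lyz2 at -0.07, with adjusted p of 1, 0.442 and 1. These are not typical of the list, in which 28 of 47 members had a positive and 19 a negative fitted difference. Itgam was the lowest of all 47. Of 53 lysosome genes 2 rose, with a median of 0.07. Tcirg1, a subunit of the proton pump, had 1.46, 1.25, 1.20 and 1.77 (fitted 1.33, SE 0.21), and Scarb2, a lysosomal membrane receptor, rose by 0.62 (SE 0.13). Slc15a3, a lysosomal peptide carrier in no list, rose by 1.18 (SE 0.18). Among 25 C-type lectins and pattern receptors Clec4e and Cd14 rose, and Clec10a, a galactose-binding lectin, fell by 0.51 (SE 0.09).

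In lists of other lineages, no mast cell or basophil gene (0 of 24) and no lymphoid gene (0 of 30) passed. Over all features 0.711% passed, so 0 calls in these or other short lists is no result about their members. Hdc, histidine decarboxylase, had 0.37, 0.43, 1.44 and 1.82 (adjusted p = 0.278), higher in replicate 2. Tfrc was the 1 of 20 erythroid and megakaryocyte genes that fell (5%). Lmo2, a progenitor transcription cofactor, rose by 0.54 (SE 0.10), and Id1 was the 1 of 35 progenitor regulators that fell. Together they were 5.71% of that list. Of 28 interferon response genes Gbp2 rose (3.57%), by 0.48 (SE 0.11). Of 17 granule secretion genes 2 rose (11.8%), Stx11, a syntaxin, by 0.43 (SE 0.10) and Rab38, a GTPase of lysosome-related organelles, by 0.56 (SE 0.11). No NADPH oxidase (0 of 6), MHC class II (0 of 16) or inflammatory cytokine gene (0 of 37) passed.

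Neutrophil granule genes split by replicate. Of 24 late granule genes 11 were above 0 in replicate 1 and below 0 in replicate 2, and 2 the other way. Of 14 primary granule genes 9 and 0 did so, and over all 20243 features 3570 and 3629. The members given next were chosen after their values were seen. S100a8, a calprotectin subunit, had 0.98, 1.88, -1.28 and -1.33. S100a9, the other subunit, had 1.25, 1.96, -0.85 and -1.19. Prtn3, proteinase 3 of primary granules, had 0.99, 1.04, -0.85 and -0.81. All 3 genes were positive on both arrays of replicate 1 and negative on both of replicate 2. Relative to the mean of the 18 RNAs of its replicate, S100a8 was at -2.86 and -0.62 in the 0-hour RNAs of replicates 1 and 2. In the 6-hour RNAs it was at -1.68 and -2.17, so the 0-hour RNAs lay farther apart than the 6-hour RNAs. For S100a9 the levels were -3.19 and -0.68 at 0 hours and -1.76 and -1.91 at 6 hours. Hp, haptoglobin, was the 1 late granule gene that rose, with 1.03, 1.18, 0.37 and 0.26, again highest in replicate 1 (fitted 0.73, SE 0.14, adjusted p = 0.0105). Its 6-hour RNAs lay farther apart than its 0-hour RNAs, at -0.57 and -0.46 at 0 hours and 0.49 and -0.05 at 6 hours. So did those of Mmp9, another late granule gene, at -0.54 and -0.65 and then 0.46 and -0.84. Median levels of the late list were -0.59 and -0.39 at 0 hours and -0.42 and -0.49 at 6 hours. How many members went each way was not counted. List medians of the 6 over 0 hour ratios in replicates 1 and 2 were 0.35 and -0.18 for late and 0.23 and -0.22 for primary granule genes. The NF-kB list had 0.31 and 0.48, and the STAT5 targets -0.31 and -0.26. The part of the replicate difference in other results was not tested.

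**Figure D3:**
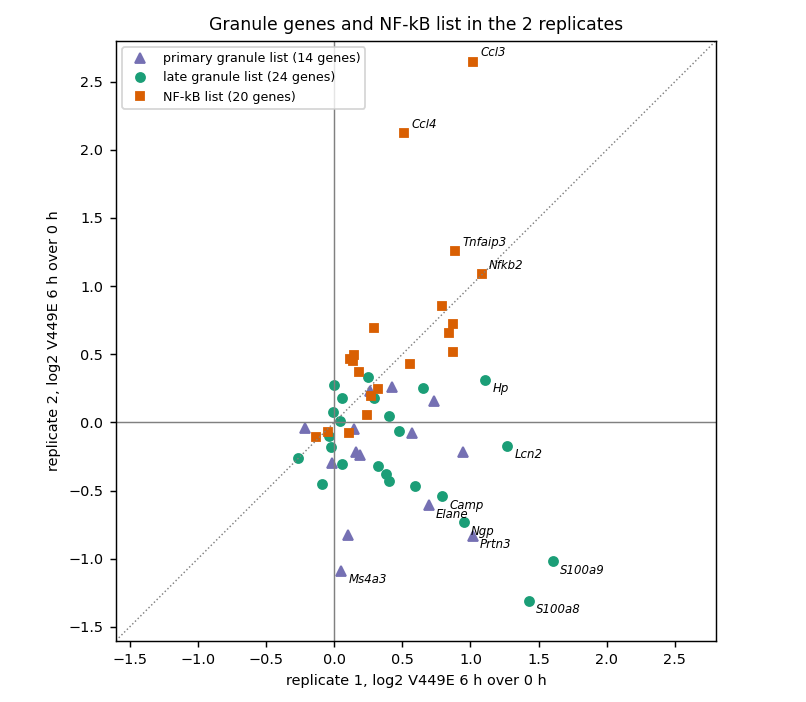
Log2 ratio of V449E cells at 6 over 0 hours in replicate 1 (horizontal) and replicate 2 (vertical), each the mean of a dye swap, for genes of 3 lists. Of 24 late granule genes 11, S100a8 and S100a9 among them, lie above 0 in replicate 1 and below 0 in replicate 2. In the NF-kB list 18 of 20 genes have a positive fitted difference.

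The next question was how the 6-hour state relates to 12 hours without IL-3. Between 6 and 12 hours 3 features passed (0.0148% of those tested), 1 higher and 2 lower. Rab38 had 0.93, 0.64, 0.37 and 0.67 at 6 hours and fell by 0.68 (SE 0.11, adjusted p = 0.0159) to 12 hours. Vmn1r44, listed as a vomeronasal receptor of a large family of similar genes, rose at 6 hours by 0.72 (SE 0.12) and fell by 0.71 (SE 0.12, adjusted p = 0.0419) thereafter. Signals of close family members on its probe cannot be told apart here. Prkcb, protein kinase C beta, was at 0.11 at 6 hours (adjusted p = 1) and rose by 0.56 (SE 0.09, adjusted p = 0.0159) from 6 to 12 hours. The count of 3 was 0 with direct arrays or weighted levels, 1 with print run 1 arrays and 39 with arrays scaled to equal spread. It was 17 without 6-hour replicate 1, 10 without 6-hour replicate 2, 23 without 12-hour replicate 1 and 18 without 12-hour replicate 2. Without 1 RNA of V449E at 0 hours, FI-Delta, parental or GM-CSF cells it ran from 0 to 20.

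The later comparisons with 0 hours use the same 0-hour RNAs, so their values are given side by side and not tested against each other. Over the 79 features higher at 6 hours the median difference was 0.61 at 6, 0.34 at 12, 0.16 at 24, -0.07 at 48 and -0.06 at 72 hours. Over the 65 lower features it was -0.53, -0.41, -0.13, -0.06 and -0.10. The 6-hour values chose these features. At the same times Tnfaip3 was at 0.99, 0.22, -0.06, -0.43 and -0.35, below 0 from 24 hours on. Id1 was at -1.10, -1.11, -0.27, 0.12 and -0.07 and Tmtc2 at -1.80, -1.83, -0.80, 0.17 and 0.19, both as low at 12 as at 6 hours. Mxd1 was at 1.42, 0.89, -0.46, -1.01 and -0.56, above 0 at the first 2 times and below 0 later. Tnfrsf1b was at 0.74, 0.85, 0.99, 0.50 and 0.15, highest at 24 hours. Nadk, which makes NADP and was named after its values were seen, was at 0.79, 1.25, 0.92, 0.42 and 0.10, highest at 12 hours. Medians of the NF-kB list were 0.39, 0.19, 0.02, -0.13 and -0.13. Those of STAT5 targets were -0.32, -0.37, -0.08, 0.02 and 0.02, and those of sterol and fatty acid synthesis -0.19, -0.27, -0.29, -0.21 and -0.13.

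**Figure D4:**
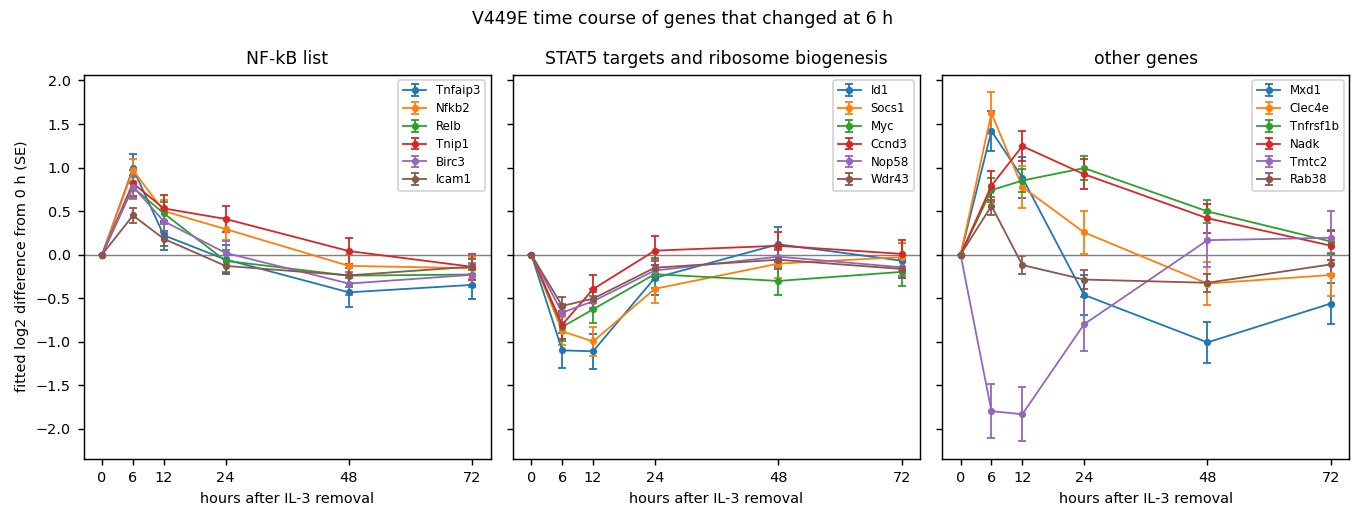
Fitted log2 difference from 0 hours (SE, n = 2 RNAs) against hours after IL-3 removal in V449E cells for 18 genes. The NF-kB list genes shown are highest at 6 hours among the times measured, Id1 and Tmtc2 are as low at 12 hours, and Tnfrsf1b and Nadk are higher at 12 hours than at 6.

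It was then asked whether the 6-hour response differs between V449E cells and the other lines. FI-Delta cells left without cytokine and parental cells moved to GM-CSF share no RNA with the V449E comparison, although the fit links them through arrays that pair the lines. No feature (0% of 20243) passed for a difference from the FI-Delta response in limma, with 142 at an unadjusted p under 0.05. None (0%) passed for a difference from the GM-CSF response, with 461 at an unadjusted p under 0.05. Without 6-hour V449E replicate 2 or FI-Delta 6-hour replicate 2 the first count was 1, and without GM-CSF 6-hour replicate 2 the second was 17. A p that misses the threshold does not show equal responses. On the direct arrays, 76 of the 79 higher features were above 0 in both FI-Delta replicates and 61 of the 65 lower ones below 0 in both. The shares over all features were 24.6% and 24.9%. In GM-CSF the numbers were 64 of 79 and 56 of 65, against 27.1% and 26.5% of all features. The fit that chose the 79 and 65 features also drew on these FI-Delta and GM-CSF arrays. The counts are therefore not independent of the choice, and the shares over all features are not a like background for them.

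Replicate values on the direct arrays show how single genes compare. The GM-CSF arrays of replicate 2 came from print run 2. Those of replicate 1 and all V449E and FI-Delta arrays used here came from print run 1. Differences between the GM-CSF replicates therefore cannot be told apart from print run. Slc7a11 had 1.76 and 1.35 in V449E, 1.65 and 1.75 in FI-Delta and 0.99 and 2.07 in GM-CSF, and the ranges overlap. Clec4e had 1.49 and 1.80, 1.26 and 0.97, and 1.34 and 1.97 in the same order, with FI-Delta below V449E and GM-CSF spanning it. Slc15a3 had 1.41 and 1.09, 1.58 and 1.66, and 1.41 and 1.50, so FI-Delta was above V449E. Tcirg1 had 1.36 and 1.49, 1.08 and 1.30, and 0.20 and 0.27, lowest in GM-CSF. Mxd1 had 1.81 and 1.04, 0.92 and -0.04, and -0.06 and -0.01, and both other lines lay below V449E. Its fitted response was larger in V449E by 1.02 than in FI-Delta (SE 0.33, adjusted p = 1) and by 1.42 than in GM-CSF (SE 0.33, adjusted p = 0.717), and neither passed. The lines also started apart. At 0 hours the fitted Mxd1 difference of V449E from FI-Delta was -1.16 (SE 0.23, adjusted p = 0.027 in limma), outside the 4 comparisons. A larger rise in V449E is thus not a higher Mxd1 level at 6 hours, and the part of the starting difference was not tested. Pmaip1 had 0.97 and 1.03, 0.28 and 0.58, and 0.05 and 0.20, with no overlap between V449E and either of the others. The differences were 0.50 (SE 0.15, adjusted p = 1) and 0.68 (SE 0.15, adjusted p = 0.691). Myc had -0.89 and -0.81, -0.68 and -1.18, and -0.08 and -0.32, nearest to 0 in GM-CSF (difference -0.67, SE 0.22, adjusted p = 1). Tnfaip2 had 0.87 and 0.51, 0.54 and 0.69, and -0.11 and -0.15, below 0 in GM-CSF only.

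**Figure D5:**
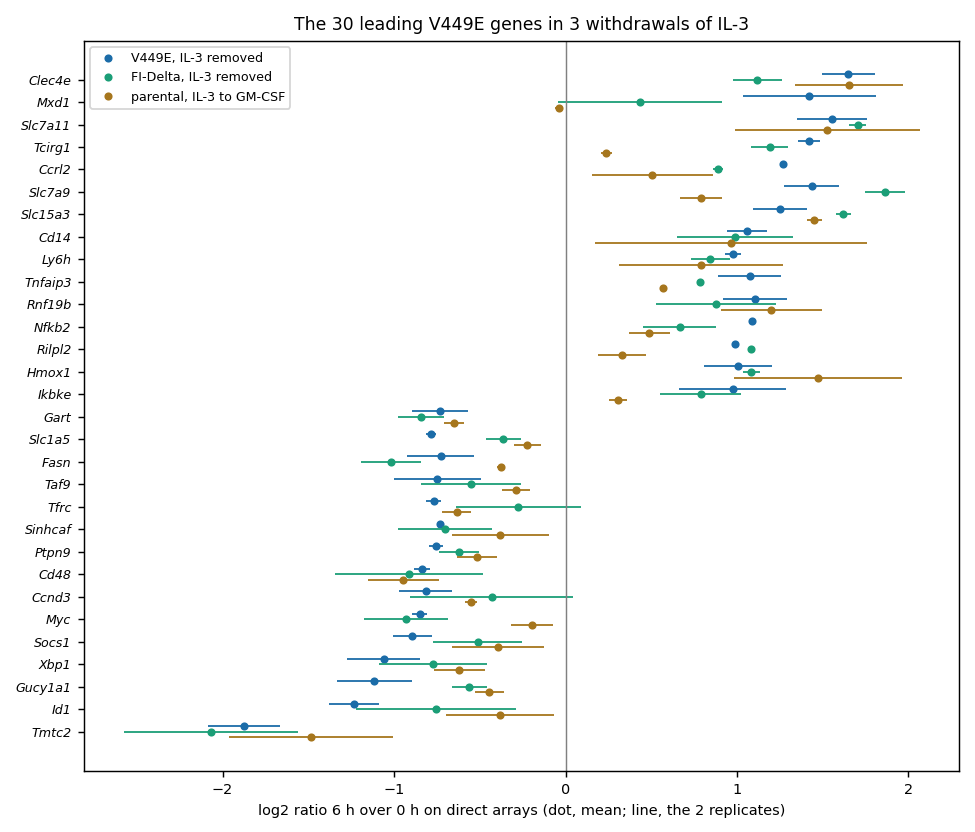
Log2 ratio of 6 over 0 hours on the direct arrays for the 15 largest rises and 15 largest falls of V449E cells, in V449E (blue), FI-Delta (green) and parental cells moved to GM-CSF (brown). Dots are means and lines join the 2 replicates. Slc7a11 overlaps between the 3, whereas Mxd1 in GM-CSF lies at 0.

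Over the lists, the NF-kB genes had replicate medians of 0.31 and 0.48 in V449E, 0.30 and 0.38 in FI-Delta and 0.21 and 0.44 in GM-CSF. For STAT5 targets they were -0.31 and -0.26, -0.11 and -0.16, and -0.07 and -0.11. No test of these list differences was made.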

How the data were processed

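The authors hybridised pairs of RNAs to 2-colour arrays and deposited 1 log2 ratio for each probe and array, normalised in limma per the submitters' processing notes, with the direction, log base and version not given in the sources used here. Of 23040 probes, 1243 controls were left out. Probes with 1 symbol (16651) were averaged into 15097 genes, and 5146 others, with no or several symbols, were kept single, which gave 20243 features. Dye swaps were averaged into 58 pairs, from which least squares gave 36 RNA levels, 2 for each of 18 conditions. Levels were fitted in limma 3.58.1 (R 4.3.3) with lmFit, eBayes and the replicate number as a block, because each array holds RNAs of 1 replicate number. Deviations of V449E at 6 and 0 hours correlated at 0.156. P-values were adjusted by the Benjamini-Hochberg method over all features, and a change needed an adjusted p under 0.05 in 4 comparisons. Residual degrees of freedom were 17 and the median SE was 0.0891. The number of arrays limits precision, since the ratios carry no depth.

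Checked on simulated data of 20243 features for V449E at 6 against 0 hours, the fit found 61 of 100 changes of 0.5 (log2) and 96 of 100 changes of 1, with 3 unchanged features among 160 calls. The simulated noise was independent between features, so deviations of 1 RNA that many features share were not simulated. The genes named are the 15 largest rises and falls past the threshold, among genes with 1 sign on all 4 arrays. Named too are changed members of 40 gene lists, and up to 2 members with the largest difference from lists with fewer. The members and lists were chosen with earlier results of these data known. Alternatives were direct arrays only, no block, weighted levels, robust moderation, arrays scaled to equal median absolute deviation, print run 1 arrays, single probes and leaving out each RNA. Promoters came from RefSeq (GRCm38.p6).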

Additional observations from a re-analysis of the deposited data

How the results depend on the processing

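The 144 changes at 6 hours became 296 with direct arrays only (131 of the 144 among them) and 517 with arrays scaled to equal spread (all 144 among them). Without the replicate block 199 passed, with weighted levels 209, with robust moderation 142, with print run 1 arrays 119 and with single probes 153. Leaving out 1 of the 4 V449E RNAs at 0 and 6 hours gave between 7 and 91, and leaving out 1 RNA of the other conditions tried gave between 81 (parental 0-hour replicate 1) and 216 (FI-Delta 6-hour replicate 1). All 144 kept their direction in the fits named here, apart from single probes and RNAs of other conditions, where it was not compared. The share of rises was 47.4% after scaling. The difference from the FI-Delta response stayed at 0 features under every alternative that kept all RNAs, and was 0 without the replicate block and 0 to 1 with 1 RNA left out. The difference from the GM-CSF response was 8 with direct arrays, 1 with scaled arrays and 6 with print run 1 arrays, 0 without the block, and 0 to 17 with 1 RNA left out. Between 12 and 6 hours the 3 features were 0 with direct arrays, 0 with weighted levels, 39 with scaled arrays, 1 with print run 1 arrays and 3 without the block. They were 10 to 23 without 1 of the V449E RNAs at 6 and 12 hours, and 0 (parental 0-hour replicate 1) to 20 (FI-Delta 6-hour replicate 1) without 1 RNA of the other conditions tried. Levels were centred within each replicate, so leaving out the block moves no estimate and adds 1 residual degree of freedom, and its counts say nothing of pairing. Among genes that did not pass, leaving out 1 RNA turned the sign in part of the fits, and values ran from -0.031 to 1.354 for Egr3, -0.069 to 0.006 for Farsa, -0.005 to 0.617 for Ncf4, -0.969 to 0.126 for Irf9, -0.185 to 0.043 for Csf2ra (also 0.023) and -0.020 to 0.223 for Prkcb at 6 hours. The cause of these shifts was not tested.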

Other observations

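A few changes fell outside every list and were picked after values were seen. Igsf6, an immunoglobulin superfamily receptor of myeloid cells, rose by 0.94 (SE 0.13), with both arrays of replicate 1 above those of replicate 2. Fn3k, fructosamine-3-kinase, rose by 0.81 (SE 0.12) and Casp4, an inflammatory caspase, by 0.86 (SE 0.15), the latter higher in replicate 2. Mapkapk2, a kinase downstream of p38, rose by 0.87 (SE 0.16). Mir17hg, the host transcript of the miR-17 cluster, fell by 0.61 (SE 0.10), Srsf3, a splicing factor, by 0.65 (SE 0.12) and Itga4, an integrin chain, rose by 0.49 (SE 0.11). The smallest p for a difference from GM-CSF was that of Ereg, epiregulin, at -1.07 (SE 0.21, unadjusted p = 4.35e-05, adjusted p = 0.577 in limma), with fitted responses of -0.54 in V449E and 0.53 in GM-CSF.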
